A study of Rattus norvegicus with 42 samples.

Results

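The genes that encode the proteins of the cytosolic ribosome were followed across 8 groups of rat lungs. Members were all gene symbols that begin with Rpl or Rps, go on with a number and at most 1 letter from a, x, y or l, or that are Rplp0, Rplp1 or Rplp2, so that symbols with a pseudogene suffix stayed out. The rule matched 79 symbols among 30045 rows of each count table, and 71 of them had at least 10 counts in at least 4 libraries of a table. There were 70 at 3 months and 68 at 9 months, with 67 in both. At 3 months the 70 comprised 39 proteins of the large subunit, 27 of the small subunit, the 2 stalk proteins Rplp0 and Rplp1, and the 2 paralogs Rpl10l and Rps27l. Rpl8, Rpl35a, Rpl38, Rpl3l, Rpl39l, Rplp2, Rps9 and Rps19 matched the rule and did not reach the minimum in either table.

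RNA was taken from a piece of lung of 42 male Fischer 344 (F344/DuCrl) rats, an inbred strain, bought at 3 months of age. No transgene or drug is named in the labels. The diet was regular, with 18% of its energy from fat, or high in fat, with 60%, starting 2 weeks ahead of the exposure and going on after it. Whole-body inhalation lasted 6 hours on each of 5 days, of air or of crystalline silica at 15 mg/m3, a mineral dust that inflames and scars the lung. Sampling followed 3 or 9 months later. The 3-month groups held 4 regular-diet air, 5 regular-diet silica, 5 high-fat air and 5 high-fat silica rats, and the 9-month groups, in that order, 6, 5, 6 and 6. Rats of the 3-month groups are called here by the animal tag in the label and those of the 9-month groups by the whole label. Total RNA was depleted of ribosomal RNA before stranded sequencing, and reads were counted per gene.

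A eukaryotic ribosome has a small subunit, which binds the message and reads its codons, and a large subunit, which forms the peptide bonds. Each subunit is built on ribosomal RNA in the nucleolus. Their messages are short, abundant and stable, and most begin with a C followed by a stretch of C and T, the 5' terminal oligopyrimidine (TOP) tract, through which mTOR and the binding protein Larp1 control their translation together. In lung, translation is high in secretory epithelium, activated macrophages and dividing cells. Several members, among them Rplp0, Rpl13a and Rps18, serve as reference genes in quantitative PCR.

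The start regions of 8 members on which the results below turn are shown to make that shared feature visible. Each line gives 15 bases before and 15 bases from the annotated start on the gene's own strand, 5' to 3', from RefSeq (build GRCr8). Capitals mark the unbroken run of C and T that opens the transcript where its annotated first base is C. The windows are Rps2 at chr10:14251833-14251862 (plus strand), Rpl14 at chr8:129163605-129163634 (plus), Rpl34 at chr2:221962269-221962298 (minus), Rplp0 at chr12:46718376-46718405 (minus), Rpl28 at chr1:78083518-78083547 (minus), Rpl37 at chr2:55942930-55942959 (plus), Rps27a at chr14:107488927-107488956 (minus) and Rps16 at chr1:92770643-92770672 (plus).
Rpl14: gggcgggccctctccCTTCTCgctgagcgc
Rpl34: ccccttccttttcctCTTCCggggacggtg
Rplp0: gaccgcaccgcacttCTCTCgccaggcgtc
Rpl28: ccccgcccctagtgtCTTTCTTTCCgtctc
Rpl37: tggtaggcgtactttCTCTTCCggtctctt
Rps27a: cctaaagggcggttcCTTCgacccggagac
Rps2: cctcttctttttcttCgggaaaacacgtga
Rps16: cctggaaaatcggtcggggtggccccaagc
Of the 71 members, 56 had a promoter of that symbol. Of these, 22 (39.3%) had a C as the annotated first base followed by at least 4 bases that are C or T, against 881 (2.63%) of all 33469 promoters of the same length. Rpl14, Rpl34, Rplp0, Rpl28 and Rpl37 had such a run, of 6, 5, 5, 10 and 7 bases, and Rps27a had a shorter one of 4. Rps2 has its C and T stretch in the bases just before the annotated start. Where the run is missing, these letters are not at that base, which says nothing on where transcripts begin in these lungs.

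Library totals lay between 5143424 and 8259635 counts at 3 months and between 3078216 and 8319382 at 9 months, and members held 0.494% to 0.694% of them. Counts on the ribosomal RNA symbols Rnr1 and Rnr2 took 0.605% to 1.66% of a library at 3 months. At 9 months they took 0.375% to 2.29% in regular-diet air, 2.6% to 5.35% in regular-diet silica, 4.62% to 7.19% in high-fat air and 7.29% to 7.85% in high-fat silica. The files do not say whether these 2 symbols stand for the nuclear or the mitochondrial ribosomal RNA. All 4 alveolar type 2 markers were present in every group, with a summed level of 7903 to 20212 CPM, as lung RNA should have. CPM are counts scaled to the library's total after TMM normalization. In bulk RNA, fewer cells of a type and less RNA per cell cannot be told apart. Each library has its own animal tag.

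Levels differed widely among members. The median member had 4920.5 counts over the 3-month libraries and the highest 62434, and at 9 months these were 4809.5 and 58951. The 10 highest members took 50.7% and 49.9% of the counts on all members at the respective times. These are counts per gene and not per length, and reads of ribosomal protein genes can be shared with near-identical processed copies, so they do not rank the messages. Rplp0, the base of the stalk that recruits elongation factors, averaged 503 CPM at 3 months and 411 CPM at 9 months. Rps4x, an X-linked small-subunit protein, averaged 499 and 421 CPM. Rpl3, a large-subunit protein near the peptidyl transferase centre, averaged 422 CPM at 3 months. At the low end stood Rpl7a (1.03 CPM), Rpl36a (1.35 CPM) and Rpl10l (1.504 CPM) at 3 months, and Rpl36a (1.32 CPM), Rps13 (1.43 CPM) and Rps6 (2.16 CPM) at 9 months. Rpl8 and Rplp2 had no count in any library. Rats of 1 group differed more in these genes than in the average gene: the median SD of log2 CPM within groups was 0.208 for members and 0.16 for all genes at 3 months, and 0.19 and 0.167 at 9 months. Among genes of at least 100 CPM it was 0.127 for 21 members against 0.0933 for 2387 genes at 3 months, and 0.115 for 22 members against 0.0942 for 2294 genes at 9 months. Rpl3 was the steadiest member at both times, with an SD of 0.0681 and 0.0757.

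Rps6, the small-subunit protein phosphorylated by S6 kinase, was counted in some rats and not in others. It had 1 count over all 19 libraries at 3 months. At 9 months 8 of 23 rats had counts, and the others had 0. In regular-diet air, Rps6 had 74 and 49 counts in RDA_SO_09_112_Lu and RDA_SO_09_114_Lu, and in regular-diet silica 49 and 47 counts in RDS_SO_09_115_Lu and RDS_SO_09_119_Lu. On the high-fat diet it had 57 counts in the air rat HFA_SO_09_124_Lu, and 10, 6 and 54 counts in the silica rats HFS_SO_09_133_Lu, HFS_SO_09_134_Lu and HFS_SO_09_141_Lu. Counts appeared in every 9-month group, and no comparison called Rps6.

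Silica on the regular diet raised a share of the ribosomal protein genes at 3 months, with rises of 1.16-fold to 2.33-fold. By edgeR's quasi-likelihood test with Benjamini-Hochberg adjustment over all genes, 17 of 70 members rose (24.3%), where 10.2% of all genes tested rose. None fell, where 6.6% of all genes fell. With an unadjusted p under 0.05, 32 members were higher and 0 lower, beside 4734 of 15234 genes in either direction. DESeq2 called 21 members higher and 0 lower. The rises comprised 9 of 39 large-subunit genes, 7 of 27 small-subunit genes and 1 of the 2 stalk genes. The median log2 difference of the members was 0.23, beside -0.01 over all genes.

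Rps2, a small-subunit protein near the entry of the message channel, had the smallest p. In regular-diet air it stood at 60.1, 54.6, 48.6 and 48.7 CPM, and after silica at 58.5, 76.6, 91.4, 91.5 and 95.7 CPM. One silica rat (43) lay among the air rats and the other 4 lay above them. The log2 difference was 0.65 ± 0.13 (SE; adjusted p 0.00108 by edgeR), a 1.56-fold rise. Rpl14, a large-subunit protein, was at 106, 95.7, 87.9 and 79.8 CPM in air and at 87.3, 120.995, 132, 130.1 and 149.7 CPM after silica, again with rat 43 among the air rats. It rose by 0.43 ± 0.11 on the log2 scale (adjusted p 0.00702). Rpl18 of the large subunit rose by 0.29 ± 0.07 (adjusted p 0.00838).

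The stalk base Rplp0 was at 454, 480.0, 410.0 and 390.3 CPM in air and 440.1, 481, 571, 558 and 583 CPM after silica. Silica rat 43 lay among the air rats and the other 4 above them, and the rise was 0.28 ± 0.08 on the log2 scale (adjusted p 0.0142). Its partner Rplp1, which binds to it as an acidic dimer, did not pass the test (-0.03 ± 0.10, adjusted p 0.868). Rpl13a, at 60.5, 47.2, 40.9 and 40.9 CPM in air and 47.5, 57.6, 71.4, 67.1 and 66.6 CPM after silica, rose by 0.40 ± 0.11 (adjusted p 0.0171). Rps18 was at 46.2, 29.7, 27.8 and 28.6 CPM in air, where rat 38 stood apart from the other 3, and at 27.1, 43.7, 49.2, 56.5 and 55.1 CPM after silica. Rps18 rose by 0.50 ± 0.17 (adjusted p 0.0483), and both it and Rpl13a overlapped between the groups. Rpl23a, at the nascent chain exit, rose by 0.48 ± 0.13 (adjusted p 0.0143). Rplp0, Rpl13a and Rps18 were thus all among the 17 called. Of the other usual reference genes, Rpl19 (0.27 ± 0.11, adjusted p 0.0891) and Rpl32 (0.28 ± 0.26, adjusted p 0.491) did not pass.

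The count rested on few rats. It was 10, 5 and 3 without air rats 40, 41 and 42, 31 without silica rat 43, and 7, 8 and 7 without silica rats 45, 46 and 47. Rps2, Rpl14 and Rpl18 were called in each of the 9 fits that left out 1 rat of the 2 groups. The count was 7 with the Rnr1 and Rnr2 share as a covariate and 6 in a fit of these 2 groups only. The share of all genes called in these other fits is not given here. Whether the members' excess over all genes held in them is therefore not shown. Silica lungs also had higher levels of neutrophil, macrophage and proliferation markers. The 3 neutrophil markers summed to 104 to 150.4 CPM in air and 458 to 744 CPM after silica, the 4 macrophage markers to 436 to 572 CPM and 794 to 1233 CPM, and the 3 proliferation markers to 51.3 to 57.1 CPM and 89.5 to 111.2 CPM. The 4 alveolar type 2 markers summed to 10489 to 12754 CPM in air and 14651 to 19241 CPM after silica. All 3 markers tested of each of the first 3 lists passed as higher, and no marker of the lists summed here was at 0 over a group. Of other lists, 0 of 3 T cell and 0 of 3 B and plasma cell markers tested passed. Lower were 4 of 4 alveolar type 1 and 2 of 3 endothelial markers. The part of all these markers in the ribosomal protein result was not tested.

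**Figure D1:**
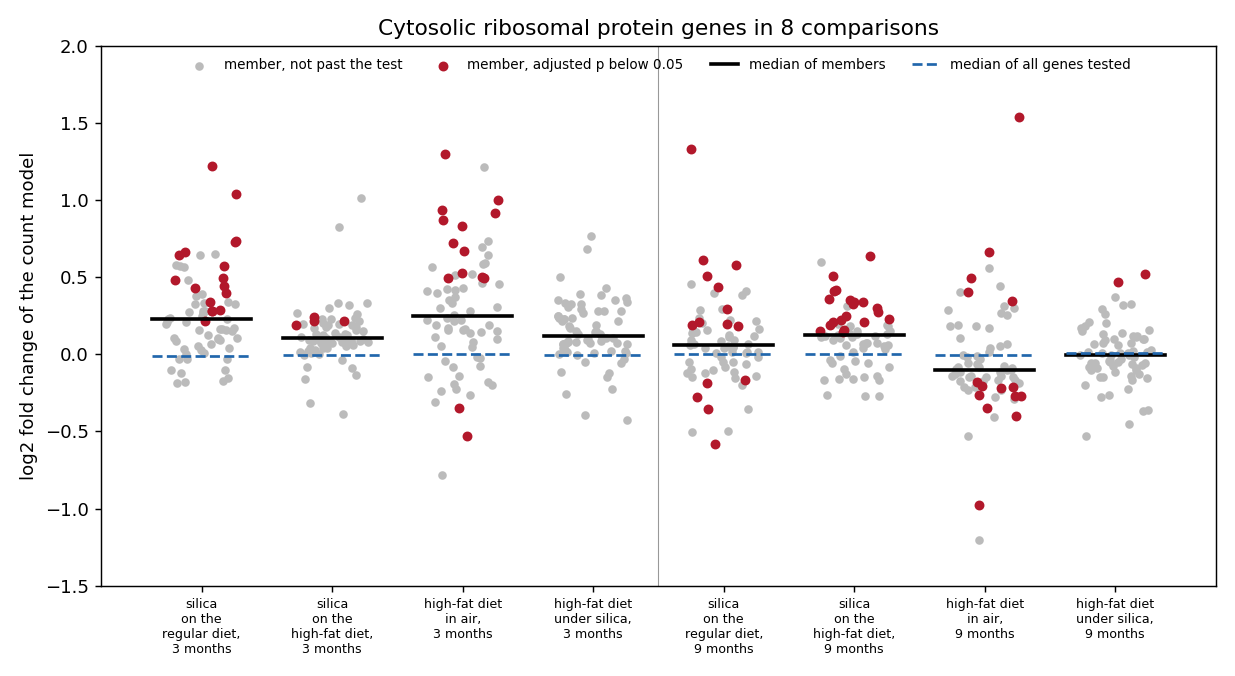
Each point is the log2 fold change (vertical axis) of 1 ribosomal protein gene in 1 of 8 comparisons (horizontal axis, 3 months on the left and 9 months on the right), red where the adjusted p was below 0.05; the solid bar is the median of the members and the dashed bar the median of all genes tested. At 3 months the member medians lie above the all-gene medians in each comparison. At 9 months the member median lies below for the high-fat diet in air, and by little for that diet under silica (-0.003 beside 0.007).

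On the high-fat diet the member median for silica at 3 months was 0.10, beside -0.01 over all genes, and 4 of 70 members rose (5.71%, beside 9.23% of all genes). None fell, beside 8.19% of all genes. Of the 70, 12 were higher and 0 lower at an unadjusted p under 0.05, beside 4407 of 15234 genes in either direction. DESeq2 called 5 members higher and 0 lower. Among the 4 called by edgeR were Rpl3, Rpl18 and Rplp0. Rpl3 was at 375, 428, 375, 396 and 412 CPM in high-fat air and at 478, 460.1, 453, 454 and 421 CPM in high-fat silica. The groups overlapped at 1 rat on each side, and the difference was 0.19 ± 0.05 on the log2 scale (adjusted p 0.00695, edgeR). Rpl18 rose by 0.21 ± 0.07 (adjusted p 0.0303), and Rplp0 rose by 0.22 ± 0.07 (adjusted p 0.0381). Rplp0 was at 462, 479, 479, 489 and 492 CPM in high-fat air and 626, 562, 529, 557 and 521 CPM in high-fat silica, with no overlap. The count was 2 without air rat 50 and 1 without silica rat 62. It was 9 with the Rnr1 and Rnr2 share as a covariate and 8 in a fit of the 2 groups only. These counts stand without the share of all genes in the same fits. The neutrophil markers summed to 71.8 to 211 CPM in high-fat air and 385 to 509 CPM in high-fat silica, and the macrophage markers to 366 to 418 CPM and 655 to 861 CPM. The alveolar type 2 markers, with 3 of 4 higher, summed to 10413 to 11628 CPM and 14001 to 20212 CPM. Lower were 3 of 4 alveolar type 1, 3 of 3 endothelial and 3 of 3 erythroid markers. No marker of these lists was at 0 over a group, and their part was not tested.

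The high-fat diet in air had the largest member median at 3 months, 0.25 on the log2 scale beside 0.00 over all genes. It shares the 4 regular-diet air rats with the silica comparison on the regular diet. Of 70 members, 12 rose (17.1%, beside 1.65% of all genes) and 2 fell (2.86%, beside 1.3%). The rises comprised 9 of 39 large-subunit and 3 of 27 small-subunit genes, and both that fell were small-subunit genes. Rps2 was at 77.4, 97.6, 86.2, 92.4 and 83.2 CPM in high-fat air, where all 5 rats lay above the 4 regular-diet air rats. It rose by 0.72 ± 0.13 (adjusted p 0.00661, edgeR), a 1.65-fold rise. Rpl34 of the large subunit was at 27.4, 21.6, 19.4 and 19.3 CPM in regular-diet air and 44.8, 40.6, 38.8, 42.3 and 38.8 CPM in high-fat air, with no overlap, and rose by 0.91 ± 0.19 (adjusted p 0.0144). Rpl14, at 127.7, 137.8, 136, 121.6 and 131 CPM, rose by 0.50 ± 0.11 (adjusted p 0.0166). Rpl30, which in yeast also binds its own message, rose by 0.67 ± 0.14 (adjusted p 0.0171) and Rpl36 by 1.00 ± 0.22 (adjusted p 0.0219).

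Rps27a and Rps23 went the other way. Rps27a encodes ubiquitin fused to a small-subunit protein and is one source of the cell's ubiquitin. It was at 255, 282, 283 and 288 CPM in regular-diet air and 187, 209, 178, 177 and 207 CPM in high-fat air, with no overlap, and fell, with a log2 difference of -0.53 ± 0.11 (adjusted p 0.0166, edgeR). Rps23, a protein of the decoding centre, had a log2 difference of -0.35 ± 0.07 (adjusted p 0.0186). After silica on the regular diet, Rps27a was at 322, 291, 189, 207 and 218 CPM, so that rats 43 and 44 were above the air rats and the other 3 below them. Rat 43, lowest of its group for Rps2 and Rpl14, was highest for Rps27a. The reference gene Rplp0 did not pass in this comparison (0.15 ± 0.08, adjusted p 0.277), while Rpl13a rose by 0.50 ± 0.11 (adjusted p 0.0219), to 67.4, 62.9, 65.8, 68.8 and 68.3 CPM. Rps18, at 39.7, 52.6, 45.6, 48.9 and 49.0 CPM, did not pass (0.52 ± 0.17, adjusted p 0.091).

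The count of 14 was 4, 4 and 2 without regular-diet air rats 40, 41 and 42 and 9 without high-fat rat 52. Of the 14 calls, that of Rps2 was kept in each of the 9 fits that left out a rat. With the Rnr1 and Rnr2 share as a covariate 4 were called, and in a fit of the 2 groups only 24, again without the share of all genes. The macrophage markers summed to 366 to 418 CPM in high-fat air, below the regular-diet air rats, and 1 of the 3 tested passed as lower. The neutrophil and proliferation markers overlapped between the 2 groups. Their part was not tested.

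Under silica, the diet comparison at 3 months called no member (0 higher, beside 0.295% of all genes, and 0 lower, beside 0.407%). At an unadjusted p under 0.05, 11 were higher and 2 lower, beside 1890 of 15234 genes in either direction. DESeq2 called 1 member higher. The member median was 0.12, beside 0.00 over all genes. The smallest p belonged to Rps2 (0.39 ± 0.11, adjusted p 0.108, edgeR), at 136, 106, 95.7, 97.4 and 109.9 CPM in high-fat silica, and to Rps16 (0.68 ± 0.20, adjusted p 0.114). The count was 1 and 2 without regular-diet silica rats 44 and 47, and 3 with the Rnr1 and Rnr2 share as a covariate. The interaction test, of silica on the high-fat diet minus silica on the regular diet, also called 0 members, and 0% of all genes in either direction. At an unadjusted p under 0.05, 2 members were higher and 7 lower, beside 990 of 15234 genes in either direction. DESeq2 called 0 members. The smallest p was that of Rpl34 (-0.70 ± 0.24, adjusted p 0.736) and then Rps25 (-0.65 ± 0.25, adjusted p 0.75). So the larger count after silica on the regular diet than on the high-fat diet was not shown to differ between the diets.

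**Figure D2:**
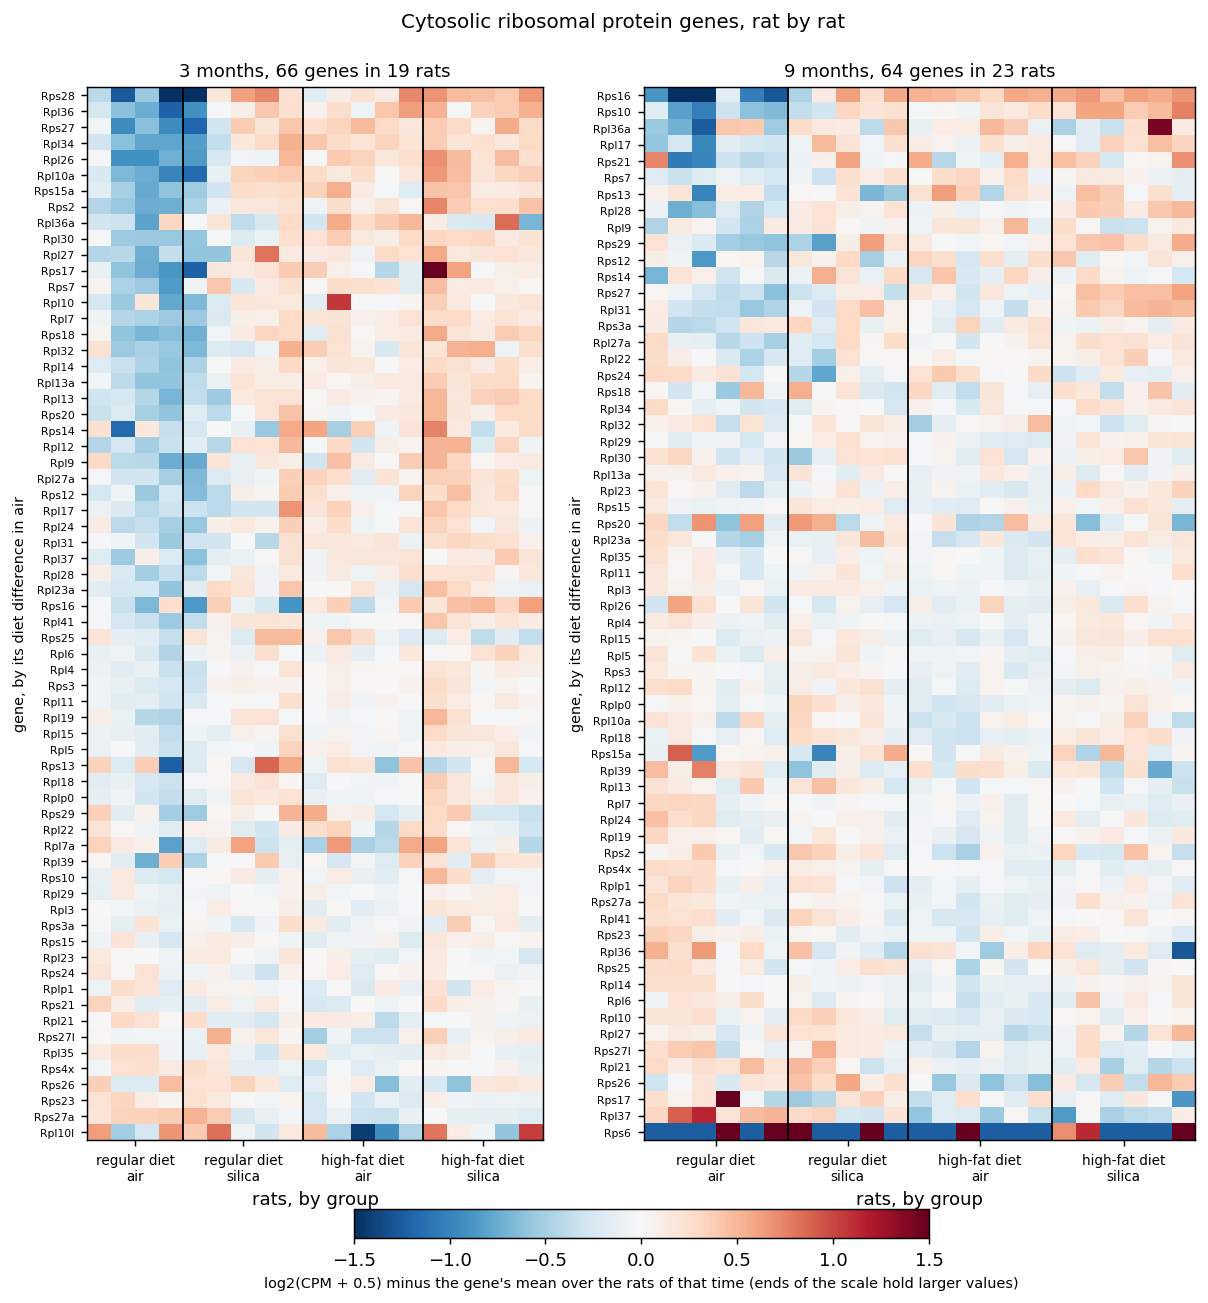
Rows are ribosomal protein genes, columns are rats by group, and colour is log2(CPM + 0.5) minus the gene's mean over all rats of that time; rows, 66 at 3 months and 64 at 9 months, are ordered by the diet difference in air. At 3 months regular-diet air rats 40, 41 and 42 and silica rat 43 are blue for most genes of the upper rows. At 9 months Rps16, in the top row, is blue in most regular-diet air rats and red in both high-fat groups. The order was taken from the air rats, so their colours in the upper rows, low on the regular diet, follow in part from it.

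Seen rat by rat, the 3-month levels of the members separated a few animals from the rest. The median over members of the log2 deviation from the mean of all 19 rats was -0.04, -0.20, -0.27 and -0.35 in regular-diet air rats 38, 40, 41 and 42, and -0.24 in silica rat 43. In the other 4 regular-diet silica rats it was 0.00 to 0.22, in high-fat air -0.03 to 0.11 and in high-fat silica 0.06 to 0.29. Rat 43 thus sat with air rats 40, 41 and 42, and rat 38 close to the lowest high-fat air rat. The Rnr1 and Rnr2 share was 0.907% in rat 43 and 0.988%, 1.03% and 1.66% in air rats 40, 41 and 42, the last the highest of the 19 and the others within the range of the other groups.

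**Figure D3:**
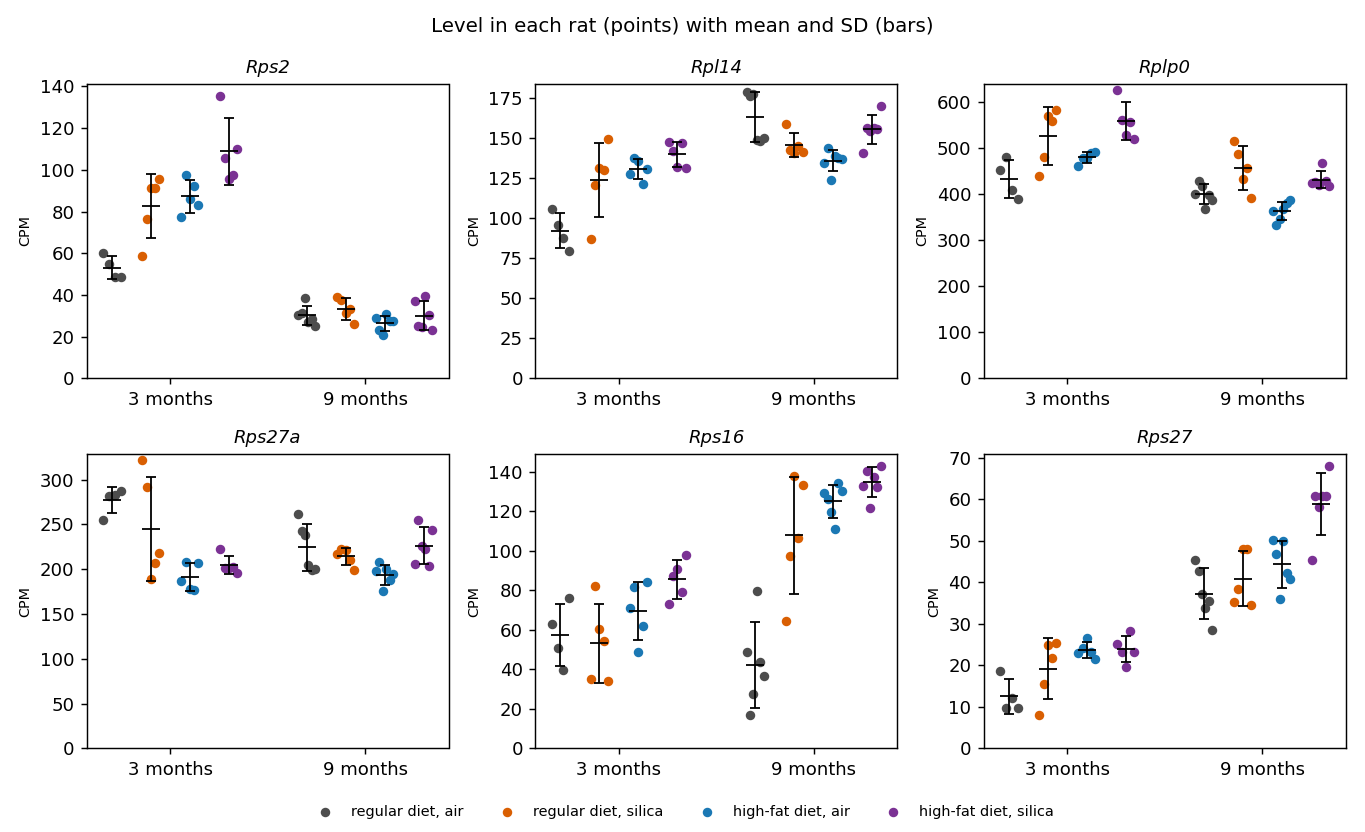
Points are single rats and bars the mean and SD of a group, in CPM on axes from 0, for 6 members at 3 and 9 months. By the group mean, among the 3-month groups Rps2 and Rpl14 are lowest in regular-diet air and Rps27a is highest there. Among the 9-month groups Rps27 is highest in high-fat silica.

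At 9 months silica on the regular diet moved members in both directions, fewer than the average gene. Of 68 members 10 rose (14.7%, beside 24.5% of all genes) and 5 fell (7.35%, beside 20.6%). The member median was 0.06, beside 0.00. The largest rise was that of Rps16, a small-subunit protein whose tail reaches toward the peptidyl site. In regular-diet air it ran from 17.0 CPM (median 40.3) to 79.8 CPM, and after silica it was at 64.4, 97.3, 137.5, 107 and 133.1 CPM. The silica rat RDS_SO_09_115_Lu lay below the highest air rat and the other 4 lay above all air rats. The log2 difference was 1.33 ± 0.22 (adjusted p 2.17e-05, edgeR), a 2.51-fold rise.

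Rpl28, a large-subunit protein absent from yeast, ran from 57.2 (median 74.7) to 90.0 CPM in air and was at 104, 110.8, 102, 99.5 and 110.5 CPM after silica, with no overlap. It rose by 0.51 ± 0.09 (adjusted p 3.72e-05). Rps10, a small-subunit protein mutated in some Diamond-Blackfan anaemia, rose by 0.61 ± 0.14 (adjusted p 0.000602), and Rpl17 rose by 0.58 ± 0.14 (adjusted p 0.00128). Rpl37 (-0.58 ± 0.20, adjusted p 0.0201), Rps24 (-0.35 ± 0.12, adjusted p 0.0203), Rpl14 (-0.16 ± 0.06, adjusted p 0.0257) and Rps23 (-0.19 ± 0.08, adjusted p 0.0475) were among the 5 that fell.

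Rplp0 ran from 368 (median 399.5) to 428 CPM in air and was at 515, 488, 433, 457 and 392 CPM after silica, where 1 of the 5 lay among the air rats. It rose by 0.19 ± 0.06 (adjusted p 0.00859, edgeR). Rpl13a (0.01 ± 0.08, adjusted p 0.927) and Rps18 (0.16 ± 0.19, adjusted p 0.53) did not pass. Of the 15 calls, 9 were kept in each fit without 1 rat. With the Rnr1 and Rnr2 share as a covariate 5 were called, 2 higher and 3 lower, and since the share did not overlap between these groups, the share and silica cannot be told apart here. The neutrophil markers summed to 83.7 to 306 CPM in air and 456 to 1298 CPM after silica, and the proliferation markers to 42.8 to 64.6 CPM and 129.8 to 197 CPM, with all 3 of each list higher. The alveolar type 2 markers, with 2 of 4 higher, summed to 9261 to 14336 CPM and 12446 to 15100.3 CPM. Lower were 4 of 4 alveolar type 1, 3 of 3 endothelial and 1 of 2 club cell markers. No marker of these lists was at 0 over a group, and their part was not tested.

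Silica on the high-fat diet at 9 months raised 20 of 68 members (29.4%), near the 26.7% of all genes that rose, so that this share is no result about the members. None fell, where 24.9% of all genes fell. Of the 68, 22 were higher and 1 lower at an unadjusted p under 0.05, beside 8655 of 15276 genes in either direction. DESeq2 called 18 members higher and 1 lower. The rises were small, from 1.11-fold to 1.56-fold, and comprised 14 of 38 large-subunit genes, 5 of 27 small-subunit genes and Rplp0. The member median was 0.12, beside 0.00. Rpl15, a large-subunit core protein, ran from 117.8 (median 126) to 133.3 CPM in high-fat air and from 146 (median 158) to 165 CPM in high-fat silica, with no overlap. Its log2 difference was 0.33 ± 0.05 (adjusted p 1.22e-05, edgeR). Rpl18 rose by 0.34 ± 0.07 (adjusted p 0.00014).

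Rplp0 ran from 333 (median 366) to 387 CPM in high-fat air and from 419 (median 426) to 468 CPM in high-fat silica, with no overlap, and rose by 0.25 ± 0.06 (adjusted p 0.00053, edgeR). Rpl31 of the large subunit, beside the exit tunnel, rose by 0.51 ± 0.12 (adjusted p 0.001). Rpl19, another common reference gene, passed narrowly (0.15 ± 0.06, adjusted p 0.0471), and Rpl13a did not (-0.01 ± 0.08, adjusted p 0.925). Rpl13a ran from 23.6 to 28.8 CPM in high-fat air and from 22.2 to 27.7 CPM in high-fat silica, almost the same range. Of the 20 calls, 15 were kept in each fit without 1 rat. The Rnr1 and Rnr2 share was 4.62% to 7.19% in high-fat air and 7.29% to 7.85% in high-fat silica. With no overlap, the share and silica cannot be told apart here. The macrophage markers summed to 363 to 464 CPM in high-fat air and 916 to 1134 CPM in high-fat silica, and the cardiac and striated muscle markers, with 3 of 6 lower, to 33.7 to 822 CPM and 16.1 to 254 CPM. The alveolar type 2 markers, with 3 of 4 higher, summed to 7903 to 9916 CPM and 13447 to 16637 CPM. Lower were 4 of 4 alveolar type 1, 3 of 3 endothelial, 2 of 2 club cell and 1 of 3 erythroid markers. No marker of these lists was at 0 over a group, and their part was not tested.

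The high-fat diet in air at 9 months lowered more members than it raised. Of 68 members 5 rose (7.35%, beside 8.16% of all genes) and 10 fell (14.7%, beside 7.06%). The member median was -0.10, beside -0.01 over all genes. The comparison shares the 6 regular-diet air rats with the silica comparison on that diet. Rps16 ran from 110.8 (median 127.5) to 133.9 CPM in high-fat air, above all 6 regular-diet air rats. It rose by 1.54 ± 0.21 (adjusted p 2.77e-05, edgeR), a 2.91-fold rise. Rps10 rose by 0.66 ± 0.13 (adjusted p 0.00106), Rpl28 by 0.34 ± 0.08 (adjusted p 0.00674), Rpl17 by 0.49 ± 0.13 (adjusted p 0.0116) and Rps7 by 0.41 ± 0.13 (adjusted p 0.0325).

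Rpl37, a zinc-binding large-subunit protein, had the largest fall, -0.98 ± 0.20 (adjusted p 0.00148, edgeR). It ran from 4.02 to 8.22 CPM on the regular diet and from 2.14 to 3.52 CPM on the high-fat diet, with no overlap. Rpl14 (-0.26 ± 0.06, adjusted p 0.00221), Rpl10, among the last proteins to join the large subunit (-0.27 ± 0.07, adjusted p 0.0136), and Rps4x (-0.20 ± 0.06, adjusted p 0.0193) were also lower. Rplp0 did not pass (-0.14 ± 0.06, adjusted p 0.0865).

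The count of 15 was 9 and 8 without the regular-diet rats RDA_SO_09_110_Lu and RDA_SO_09_111_Lu, and 9, 8 and 9 without the high-fat rats HFA_SO_09_124_Lu, HFA_SO_09_128_Lu and HFA_SO_09_129_Lu, and 8 of the 15 calls were kept in each fit without 1 rat. With the Rnr1 and Rnr2 share as a covariate 0 members were called. No high-fat air rat had a share within the range of the regular-diet air rats, so the share and the diet cannot be told apart here. The macrophage markers summed to 505 to 836 CPM in regular-diet air and 363 to 464 CPM in high-fat air, with 3 of 4 lower. The 4 alveolar type 2 markers summed to 9261 to 14336 CPM in regular-diet air and 7903 to 9916 CPM in high-fat air, also with 3 of 4 lower and a median of -0.32 on the log2 scale. The cardiac and striated muscle markers summed to 14.3 to 534 CPM and 33.7 to 822 CPM, with 0 of 6 called. No marker of these lists was at 0 over a group, and their part was not tested.

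Under silica at 9 months the diet comparison called 2 members, both higher (2.94%, beside 1.82% of all genes), and 0 lower, beside 1.7%. Of the 68, 5 were higher and 2 lower at an unadjusted p under 0.05, beside 2699 of 15276 genes in either direction. DESeq2 called 2 members higher and 0 lower. Rps27, a zinc-binding small-subunit protein with a p53-induced paralog, Rps27l, was at 35.3, 38.4, 48.1, 48.0 and 34.6 CPM in regular-diet silica. It ran from 45.3 (median 60.8) to 68.0 CPM in high-fat silica. The lowest high-fat rat lay among the regular-diet rats and the other 5 lay above them. The log2 difference was 0.52 ± 0.12 (adjusted p 0.0155, edgeR). Rps10 rose by 0.47 ± 0.13 (adjusted p 0.0468). The paralog Rps27l did not pass (-0.23 ± 0.13, adjusted p 0.381). The count was 1 without the regular-diet silica rat RDS_SO_09_115_Lu or RDS_SO_09_117_Lu or the high-fat silica rat HFS_SO_09_135_Lu, HFS_SO_09_137_Lu, HFS_SO_09_138_Lu or HFS_SO_09_141_Lu, 1 in a fit of the 2 groups only and 0 with the Rnr1 and Rnr2 share as a covariate. Rps27 was called in each fit without 1 rat. The share was 2.6% to 5.35% in regular-diet silica and 7.29% to 7.85% in high-fat silica. With no overlap, the share and the diet cannot be told apart here.

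The silica effect differed between the diets for 2 members at 9 months, 1 higher (1.47%, beside 0.55% of all genes) and 1 lower (1.47%, beside 0.543%). Rpl14 ran from 148 (median 163) to 179 CPM in regular-diet air and was at 159, 143, 140.8, 145 and 141.3 CPM in regular-diet silica. It ran from 123.7 (median 137.6) to 144 CPM in high-fat air and from 140.7 (median 156) to 169.9 CPM in high-fat silica. So it fell with silica on the regular diet and rose on the high-fat diet (0.19 ± 0.06, adjusted p 0.00585), and the difference of the 2 effects was 0.36 ± 0.08 (adjusted p 0.0302, edgeR). Rps16 rose on the regular diet as given above and changed by 0.11 ± 0.20 on the high-fat diet (adjusted p 0.683), where it ran from 121.7 to 143 CPM after silica. The difference of its effects was -1.22 ± 0.30 (adjusted p 0.0454). These calls lay near the threshold. The count was 0 without RDA_SO_09_109_Lu, RDA_SO_09_111_Lu, RDS_SO_09_119_Lu, RDS_SO_09_120_Lu, HFA_SO_09_121_Lu, HFA_SO_09_124_Lu, HFS_SO_09_138_Lu or HFS_SO_09_141_Lu. It was 1 without RDA_SO_09_110_Lu, RDS_SO_09_118_Lu, HFA_SO_09_122_Lu, HFA_SO_09_128_Lu, HFA_SO_09_129_Lu, HFS_SO_09_134_Lu, HFS_SO_09_135_Lu or HFS_SO_09_137_Lu. It was 0 with the Rnr1 and Rnr2 share as a covariate.

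Within groups, Rps16 was the member that moved with the Rnr1 and Rnr2 share at 3 months. The test used differences between rats of 1 group only. Of 70 members 1 had a higher level with a higher share (1.43%, beside 0.0459% of all genes, that is 7 genes including Rnr1 and Rnr2 themselves) and 0 a lower level, beside 0%. At an unadjusted p under 0.05, 2 members were higher and 8 lower with a higher share, beside 1399 of 15234 genes in either direction. DESeq2 called 1 member higher and 0 lower. A doubling of the share went with a difference of 0.78 ± 0.12 in log2 Rps16 (adjusted p 0.00847, edgeR). In regular-diet air Rps16 was at 62.8, 50.6, 39.8 and 76.0 CPM in rats whose share was 1.37%, 0.988%, 1.03% and 1.66%. In regular-diet silica it was at 34.9, 82.1, 60.1, 54.2 and 34.2 CPM with shares of 0.907%, 1.43%, 0.87%, 1.06% and 0.635%. In high-fat air it was at 70.8, 81.7, 48.7, 62.0 and 84.2 CPM with shares of 1.01%, 1.17%, 0.605%, 0.769% and 1.24%. In each of these 3 groups the rat with the highest share had the highest Rps16, and in all but regular-diet air the rat with the lowest share had the lowest.

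In high-fat silica Rps16 was at 72.8, 87.2, 90.8, 79.1 and 97.9 CPM with shares of 0.776%, 1.09%, 1.19%, 1.36% and 1.45%, and the lowest and highest rats again matched. In 1 fit with a separate slope for each group, it was 1.01 in regular-diet air, 1.03 in regular-diet silica, 0.74 in high-fat air and 0.36 in high-fat silica. The slope was positive in all 4 and called in none. The call ended without regular-diet silica rat 44 or 47, where the slope stayed within the range of 0.69 to 0.86 found over all fits without 1 rat.

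**Figure D4:**
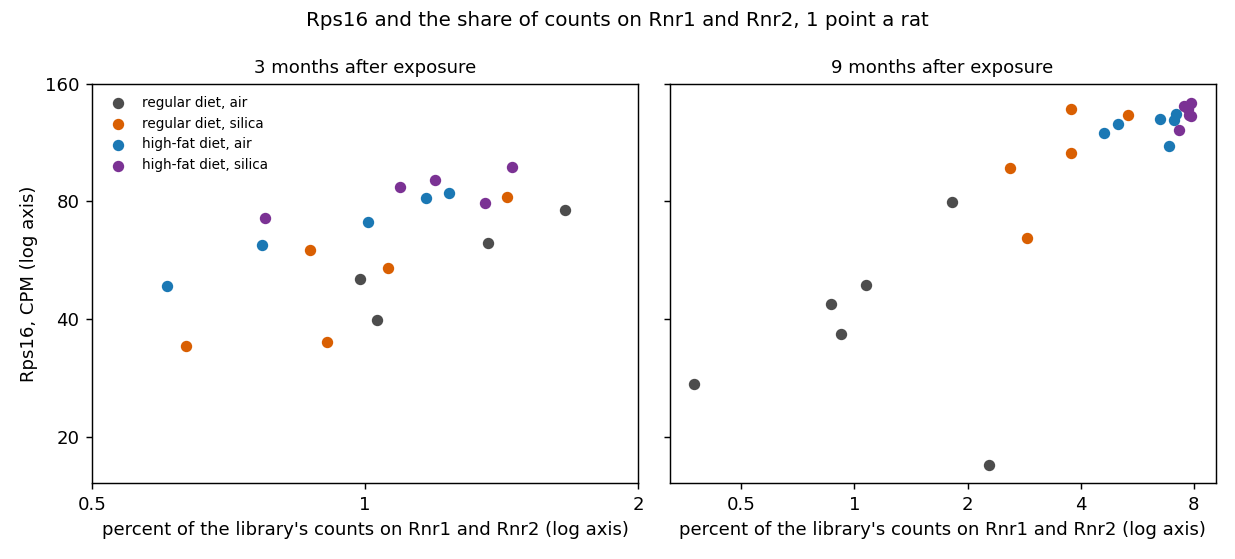
Each point is a rat, with the percent of its counts on Rnr1 and Rnr2 on the horizontal log axis and Rps16 in CPM on the vertical log axis, by group. At 9 months the regular-diet air rats hold the low shares and low levels, and 1 of them, at a share of 2.29%, has the lowest Rps16 of all.

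At 9 months no member was called for this slope, 0 higher (beside 0.0196% of all genes) and 0 lower (beside 0.0524%). At an unadjusted p under 0.05, 3 were higher and 1 lower with a higher share, beside 828 of 15276 genes in either direction. DESeq2 called 0 members. Across the 9-month groups the median Rps16 followed the order of the shares, 40.3, 107, 127.5 and 135.1 CPM from regular-diet air to high-fat silica. Across the 3-month groups it did not. There it was 56.7, 54.2, 70.8 and 87.2 CPM in the same order of groups, with mean shares of 1.26%, 0.981%, 0.957% and 1.17%. Among the 6 regular-diet air rats, RDA_SO_09_110_Lu had the highest share (2.29%) and the lowest Rps16. The smallest p was that of Rps15a (0.67 ± 0.15, adjusted p 0.0786, edgeR), called without the filter on low counts or without RDA_SO_09_110_Lu, RDA_SO_09_112_Lu or RDS_SO_09_115_Lu, and then of Rps20 (-0.48 ± 0.19, adjusted p 0.709). Most slopes passed no test, and 29 were positive and 39 negative at 9 months, and 16 and 54 at 3 months, where the median slope was -0.10 beside -0.01 over all genes.

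The change of the silica effect from 3 to 9 months could be tested as a difference of differences. On the regular diet 6 of 71 members were called, 1 higher (1.41%, beside 3.71% of all genes) and 5 lower (7.04%, beside 3.07%). Rps16 gained (1.42 ± 0.33, adjusted p 0.00678, edgeR), and Rpl14 (-0.60 ± 0.12, adjusted p 0.00172), Rpl7 (-0.49 ± 0.14, adjusted p 0.0237), Rpl34 (-0.68 ± 0.20, adjusted p 0.0339) and Rpl36 (-1.09 ± 0.34, adjusted p 0.0452) were among those that lost. The member median was -0.17, beside -0.01. The count was 13 and 2 without 3-month air rats 38 and 42, 18, 3 and 3 without 3-month silica rats 43, 45 and 47, 3 without the 9-month silica rat RDS_SO_09_120_Lu, and 0 with the share as a covariate. Rps16 and Rpl14 were called in each fit without 1 rat. On the high-fat diet 0 members were called, beside 6.55% of all genes higher and 4.12% lower. There were 3 higher and 0 lower at an unadjusted p under 0.05, beside 3933 of 15759 genes in either direction. DESeq2 called 0 members. The smallest p there was that of Rpl31 (0.40 ± 0.17, adjusted p 0.121) and then Rpl23 (0.26 ± 0.11, adjusted p 0.138).

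Between the 2 tables several members stood at other levels altogether. Time after exposure, age and table are 1 factor, so these are descriptions without a test. The CPM given were scaled within each table. The 2-fold limit was taken on CPM scaled over all 42 libraries together, with 0.5 added. In all 4 groups 2 of 71 members were more than 2-fold higher at 9 months, beside 0.311% of all genes, and 9 were more than 2-fold lower, beside 0.273%. Rpl7a and Rps28 reached the count minimum at 3 months only, and Rps6 at 9 months only. These genes became members through the table where they were high, so their place in the counts follows in part from the minimum. Rps18, a common reference gene, went from 33.1 ± 8.75 CPM (SD, n = 4) to 6.53 ± 1.79 CPM (SD, n = 6) in regular-diet air. Rpl9 went from 22.1 ± 7.42 CPM (SD, n = 4) to 3.98 ± 0.869 CPM (SD, n = 6) and Rps20 from 13.8 ± 1.68 CPM (SD, n = 4) to 3.33 ± 1.36 CPM (SD, n = 6). Rpl37, Rps21, Rps12, Rpl13, Rps28 and Rpl7a were the others, and Rpl7a, a large-subunit protein, had counts at 3 months and 0 in all libraries at 9 months. Apart from Rps18, Rpl7a and Rps6, these genes are named because they passed the 2-fold limit. Rpl35 went the other way, from 126 ± 12.9 CPM (SD, n = 4) to 238 ± 27.1 CPM (SD, n = 6), as did Rps6. The 9-month counts of Rps6 came from 8 of 23 rats, with 0 in the others, so its group means rest on few rats. On the joint scale of the limit, Rpl35 went from 121.3 to 245.4 CPM in regular-diet air, 2.02-fold, just past it. In that group Rpl13 was 2.01-fold lower and Rps12 2.15-fold lower, also near the limit. The 2.84-fold fall of Rpl7a there, from 0.918 to 0 CPM, depends on the 0.5 added. Rplp0 moved less, from 433 ± 40.8 CPM (SD, n = 4) to 400.3 ± 21.5 CPM (SD, n = 6).

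**Figure D5:**
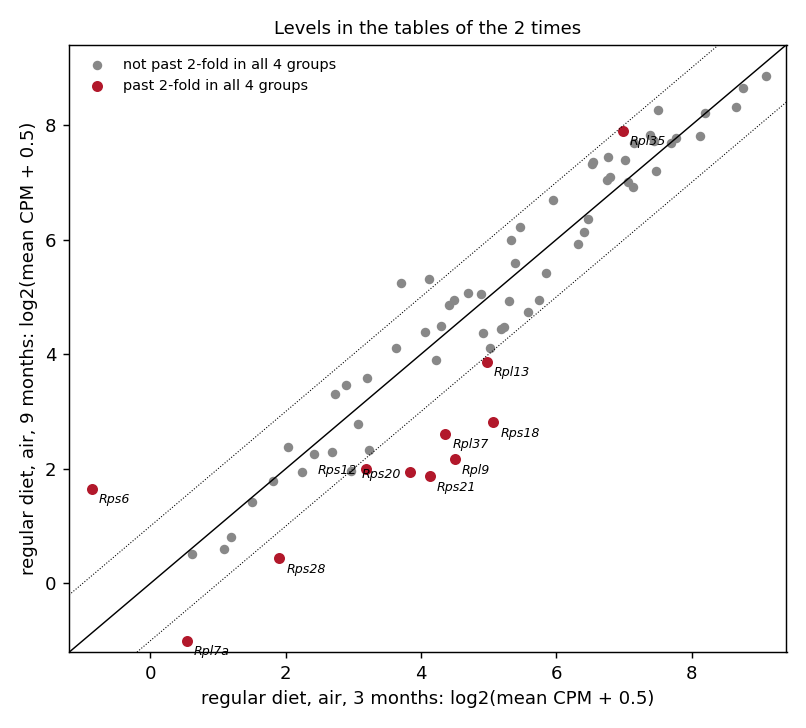
Each point is a ribosomal protein gene, with its mean level in regular-diet air as log2(CPM + 0.5) at 3 months (horizontal) and 9 months (vertical); the solid line is equality and the dotted lines are 2-fold. The 11 red genes lay past 2-fold in all 4 groups, 9 below and 2 above, on CPM scaled over all 42 libraries together. The axes are scaled within each time, and on them Rpl35 lies inside the dotted lines.

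The 2 paralogs kept at 3 months did not pass any test. Rpl10l, a testis-enriched paralog of Rpl10, stood at 2.32, 0.778, 1.03 and 2.39 CPM in regular-diet air and at 2.04, 0.812, 0.182, 0.457 and 0.837 CPM in high-fat air (-0.78 ± 0.54, adjusted p 0.423, edgeR). Rps27l stood at 30.7, 28.9, 29.4 and 29.3 CPM and 21.0, 28.9, 24.1, 24.2 and 31.8 CPM (-0.19 ± 0.13, adjusted p 0.412). After silica on the high-fat diet, Rps27l was at 38.9, 27.8, 31.4, 32.0 and 33.3 CPM, with a log2 difference of 0.33 ± 0.12 (adjusted p 0.0556).

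Other parts of the translation machinery were read from lists chosen by function. Among the 6 tested of 8 ribosome genes outside the symbol rule, Rpsa, the laminin-binding small-subunit protein, rose 3 months after silica on the regular diet (0.30 ± 0.09, adjusted p 0.0286) and on the high-fat diet in air (0.40 ± 0.09, adjusted p 0.0223). At 9 months it fell on the high-fat diet in air (-0.18 ± 0.04, adjusted p 0.00401). In all, 2 of the 6 rose and 0 fell in each of those 3-month comparisons, a list too short to read against all genes. Of all genes tested, 10.2% rose and 6.6% fell in the first of them, and 1.65% rose and 1.3% fell in the second. Of 68 mitochondrial ribosomal protein genes tested, 3 rose and 0 fell after silica on the regular diet at 3 months, with a median of 0.05, and 1 rose and 1 fell on the high-fat diet in air, with a median of -0.08. At 9 months 12 rose and 3 fell after silica on the regular diet, beside 24.5% and 20.6% of all genes, and 19 rose and 1 fell on the high-fat diet, beside 26.7% and 24.9%. The shares of mitochondrial ribosomal genes that rose were below or near those of all genes in these 4 comparisons, so rises there are no result about this list.

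Of 37 ribosome biogenesis factors, 5 rose and 0 fell 3 months after silica on the regular diet, a share of rises near the 10.2% of all genes. At 9 months 20 rose and 0 fell, beside 24.5% and 20.6% of all genes, and the median was 0.20. Tsr1, which matures the small subunit, rose by 0.38 ± 0.08 and 0.75 ± 0.08 (adjusted p 0.00134 and 5.20e-08, edgeR). On the high-fat diet in air 1 rose and 1 fell at 3 months, near the shares of all genes (1.65% and 1.3%), with Ddx21, a nucleolar helicase, at 0.38 ± 0.07 (adjusted p 0.0104). Of 36 translation factors, 13 rose and 2 fell 9 months after silica on the regular diet, beside 24.5% and 20.6% of all genes. On the high-fat diet 20 rose and 1 fell, beside 26.7% and 24.9%. Eif4a1, the cap-complex helicase, rose by 0.49 ± 0.06 and 0.49 ± 0.06 (adjusted p 2.96e-07 and 7.47e-08). Of 14 growth and ribosome regulators, 4 rose and 0 fell 3 months after silica on the regular diet, beside 10.2% and 6.6% of all genes, and 0 passed on the high-fat diet in air. Larp1, which binds TOP messages, rose by 0.27 ± 0.05 at 3 months and 0.53 ± 0.05 at 9 months (adjusted p 0.00116 and 1.89e-09), and Myc by 0.53 ± 0.15 and 0.76 ± 0.09 (adjusted p 0.0158 and 1.96e-07). Of 63 nuclear genes of oxidative phosphorylation, whose messages are also short and abundant, 5 rose and 1 fell 3 months after silica on the regular diet, and 2 rose and 1 fell on the high-fat diet in air. Of all genes tested, 10.2% rose and 6.6% fell in the first of these comparisons, and 1.65% rose and 1.3% fell in the second. The share of this list that fell after silica lay below that of all genes.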

How the data were processed

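Lung RNA libraries of 42 rats were analysed from 2 tables, one for 3 months and one for 9 months after exposure. The tables hold whole-number read counts per gene, as deposited by the authors. Per the submitters' processing notes, the genome build was Rnor_6.0 and the tools were HTSeq 0.6.1, TopHat2 2.0.9 with Bowtie2 2.2.9, Trimmomatic 0.35, SAMtools 0.1.19 and bcl2fastq 2.19. The strand setting of the counting and the gene annotation are not given in the sources used here, so reads of a gene and of an overlapping gene or near-identical processed copy may not be told apart. Library totals ran from 3078216 to 8319382 counts.

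Each table was fitted with edgeR 4.0.16 in R 4.3.3 (limma 3.58.1). TMM factors, filterByExpr and the quasi-likelihood test (legacy = FALSE) were used over the 4 groups of a time point, with Benjamini-Hochberg adjustment over all genes tested and a threshold of 0.05. A further fit over all 8 groups tested whether the response to silica differed between the times, and a slope on log2 of the Rnr1 and Rnr2 share was fitted with groups as terms. SEs are on the log2 scale. Scripts were tested on simulated data. Heat map and table comparisons use log2(CPM + 0.5). DESeq2 1.42.0 and the other alternatives of the closing section were also run. No pair of libraries was a repeat: the lowest chi-square per degree of freedom was 1.93 among 91 pairs of the same group and 2.69 among 333 pairs of different groups.

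The members and the gene lists were chosen with earlier results of these data known. Genes named were a panel (Rplp0, Rplp1, Rplp2, Rpl13a, Rpl19, Rpl32, Rps18, Rps6 and Rpl3), the paralogs, the 5 called members with the smallest p in each direction of a comparison (the 2 smallest where none was called), the 3 highest and 3 lowest members of each table, and at most 3 genes per list. Genes outside that rule were named after their values were seen. Some genes that the rule selects are not reported here by name, and they stay in all counts and medians. Sequences came from a RefSeq promoter table of build GRCr8, matched by symbol.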

Additional observations from a re-analysis of the deposited data

Results flagged for a closer look

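Among 12 measures in 8 groups, 96 group checks in all, 6 had 1 rat far from the others, a number that chance gives at about 1 in 20 checks. Rps18 in regular-diet air at 3 months was at 46.16 CPM in rat 38, with the next rat at 29.73 CPM. Rps27a in high-fat silica at 3 months was at 222.9 CPM in rat 62, with the next at 202.2 CPM. At 9 months Rpl13a was lowest at 21.42 CPM in RDA_SO_09_114_Lu, below 26.54 CPM in the next rat. In 9-month regular-diet silica, Rpl14 was highest at 159.1 CPM in RDS_SO_09_115_Lu, above 145.2 CPM, and Rpl3 lowest at 298.8 CPM in RDS_SO_09_120_Lu, below 329.9 CPM. In 9-month high-fat silica, Rplp0 was highest at 468.5 CPM in HFS_SO_09_137_Lu, above 429.3 CPM.

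By edgeR's interaction tests, the silica effect differed between the diets at 9 months for Rpl14, by 0.36 on the log2 scale, and for Rps16, by -1.22. On the regular diet it differed between 3 and 9 months for Rps16, by 1.42, and for Rpl14 (-0.60), Rpl7 (-0.49), Rpl34 (-0.68) and Rpl36 (-1.09). The direction of each is the high-fat diet minus the regular diet, or 9 months minus 3 months.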

How the results depend on the processing

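With the Rnr1 and Rnr2 share as a covariate, 7 members were called after silica on the regular diet at 3 months, 9 on the high-fat diet, 4 for the high-fat diet in air and 3 for that diet under silica. At 9 months the same covariate left 5 for silica on the regular diet, and 0 for the high-fat diet in air, for that diet under silica, for the interaction and for the change with time on the regular diet. Fits of the 2 groups compared only called 6, 8 and 24 members at 3 months, for silica on the regular diet, silica on the high-fat diet and the high-fat diet in air, and 1 for the high-fat diet under silica at 9 months. DESeq2 called 1 member for the high-fat diet under silica at 3 months. With no filter on low counts 1 was called for the high-fat diet under silica at 9 months and 1 for the slope at 9 months. A separate slope for each group, in 1 fit of all groups of the time, called 0 in each of the 4 groups at 3 months. The cause of these changes was not tested. Counts from DESeq2, the other settings and the fits without 1 rat are given without the share of all genes called in the same fit. They show how the number of calls moved, and not whether members still differed from all genes.

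Leaving out 1 rat at a time gave, at 3 months, 3 to 31 members called for silica on the regular diet, 1 to 6 on the high-fat diet, 2 to 18 for the high-fat diet in air, 0 to 2 for that diet under silica, 0 to 0 for the interaction and 0 to 1 for the slope. At 9 months the ranges were 10 to 17, 17 to 21, 8 to 21, 1 to 2, 0 to 3 and 0 to 1 in the same order, and for the change with time 2 to 18 on the regular diet and 0 to 0 on the high-fat diet. The other settings (RLE size factors, Rnr1 and Rnr2 removed, TMM factors without the members) kept each count of calls within 1.5 times. For the single genes named, 384 of 444 values kept their direction and side of the threshold, 57 no longer passed, 3 newly passed and 0 turned. No paired analysis was possible because the animal tags are not shared between groups. Depth limits the members of few counts, such as Rpl7a, Rpl36a and Rps13, and near-identical copies limit how far a level can be tied to 1 gene.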

Other observations

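Rpl3l, the striated muscle paralog of Rpl3, missed the minimum, and its counts at 9 months sat in a few rats. It had 26 counts in the regular-diet air rat RDA_SO_09_110_Lu and 41, 27 and 9 counts in the high-fat air rats HFA_SO_09_127_Lu, HFA_SO_09_128_Lu and HFA_SO_09_129_Lu, and 0 to 7 counts in the other rats. The cardiac and striated muscle markers summed to 534 CPM in the first and to 822, 567 and 393 CPM in the others. Rpl3l was looked at after its values were seen.

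At 3 months 4 other genes, Bcap29, Tardbp, LOC100910850 and Ogdh, were called with Rps16 for the slope on the Rnr1 and Rnr2 share within groups, beside Rnr1 and Rnr2 themselves. At 9 months Cyp2c22, Thrsp, Itih2, Tat, Itih1, Cpb2, Mat1a and Hpd had lower levels with a higher share and LOC100910104 a higher one.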
